A study of Mus musculus with 768 samples.

Results

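Vascular cancer-associated fibroblast-like (vCAF-like) cells of the mouse mammary tumor were divided by the transcript of *Emcn*, the gene of endomucin. The cells were chosen by measured expression. A well was kept with at least 10000 endogenous reads and 1000 genes with a read. A vascular score V was the mean log2(RPKM + 1) of *Rgs5*, *Higd1b*, *Kcnj8*, *Rgs4*, *Abcc9* and *Gja4*, and a matrix score M the same mean of *Dcn*, *Lum*, *Mfap5*, *Olfml3*, *Smoc2* and *Serpinf1*, where RPKM is reads per kilobase of gene model, scaled to mapped reads. A kept cell was vCAF-like with V of at least 4 and above M. It was *Emcn*-positive from 5 reads of *Emcn* and *Emcn*-negative at 0 reads. Of 768 wells, 717 were kept and 496 held vCAF-like cells, 261 in tumor 1 and 235 in tumor 2. Of these, 194 were *Emcn*-positive (83 and 111), 274 were *Emcn*-negative (166 and 108), and the remaining 28 (12 and 16) had 1 to 4 reads and entered neither group. *Emcn*, V, M and the 13 genes behind them made the groups, so their values are a description with no test.

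All cells came from a pair of mammary tumors of MMTV-PyMT mice (strain label FVB/N-Tg(MMTVPyVT)634Mul/J), aged 14 weeks, in which the mammary tumor virus promoter drives the polyoma middle T antigen in mammary epithelium. The authors sorted single EpCAM-, CD45-, CD31- and NG2-negative cells into plates, 1 tumor to a plate of 384 wells, and made Smart-seq2 libraries with ERCC spike-ins. Both *Emcn* groups of a tumor thus share the animal, the sort and the plate, the tumor is the replicate (n = 2), and tumor and plate cannot be told apart. Wells held 303 to 838772 endogenous reads in tumor 1 and 215 to 1190516 in tumor 2.

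Endomucin is a heavily O-glycosylated sialomucin of the cell surface, best known from capillary and venous endothelium, where it restrains leukocyte adhesion and takes part in VEGF receptor signalling. Pericytes sit on the abluminal side of small vessels under a shared basement membrane. They carry *Pdgfrb*, *Rgs5* and potassium channel subunits such as *Kcnj8* and *Abcc9*, and they grade into contractile smooth muscle cells along larger vessels.

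*Emcn* lies on chromosome 3 of the mouse genome (GRCm38.p6, the assembly of mm10) from 137341062 to 137431069 on the plus strand, 90008 bases. GENCODE lists 4 transcripts for it, with 7 to 12 exons, and 0 other genes that overlap it, so its reads have no annotated overlapping or antisense partner. The stretch before the annotated start of the gene, chr3:137340828-137341061 on the plus strand, is shown because this promoter belongs to the transcript that divides the cells. Its 234 bases come from RefSeq (GRCm38.p6). Capitals mark 2 motifs searched on both strands, GGAA, the core recognised by ETS factors, and AGGTCA, the half-site of nuclear receptors such as *Nr2f2*. On the minus strand they read TTCC and TGACCT.

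*Emcn* promoter: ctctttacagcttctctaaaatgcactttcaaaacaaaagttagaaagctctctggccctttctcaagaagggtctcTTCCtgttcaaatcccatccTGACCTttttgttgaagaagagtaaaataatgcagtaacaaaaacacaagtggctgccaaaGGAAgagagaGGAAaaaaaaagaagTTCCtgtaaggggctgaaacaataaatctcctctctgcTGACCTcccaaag

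GGAA occurred 4 times and AGGTCA 2 times in these letters. Of 32851 promoters of the same length, 92.2% held GGAA and 28.7% held it at least 4 times, while 13.2% held AGGTCA and 1.23% held it at least 2 times. The motifs were picked after the letters were seen, and a match is a description of the letters. *Ets1*, an ETS factor, had 456 and 378 CPM (summed reads scaled to library size and to TMM, the composition factor of edgeR) in the *Emcn*-positive and *Emcn*-negative cells of tumor 1, and 460 and 445 in tumor 2. *Nr2f2*, a nuclear receptor of venous identity, had 471 and 520 CPM in tumor 1, and 504 and 557 in tumor 2. Neither passed the test (edgeR adjusted p = 0.896 and 0.891).

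Most vCAF-like cells had either no *Emcn* read or at least 5. *Emcn*-positive cells of tumor 1 held a median of 54.0 *Emcn* reads, between 6 and 391, and those of tumor 2 a median of 63.0, between 7 and 722. As log2(RPKM + 1) their level ran from 3.51 to 9.61 (median 7.25) in tumor 1 and from 4.03 to 10.48 (median 7.69) in tumor 2. At the threshold itself, no cell had 5 reads in either tumor. With 4 reads there was 1 cell in tumor 1 and 0 in tumor 2, and with 6 reads 3 and 0. In log2(RPKM + 1) the cells with 1 to 4 reads ran from 1.32 to 3.37 in tumor 1 and from 0.58 to 5.37 in tumor 2, where they overlap the *Emcn*-positive cells, as the plot of *Emcn* per cell shows.

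**Figure D1:**
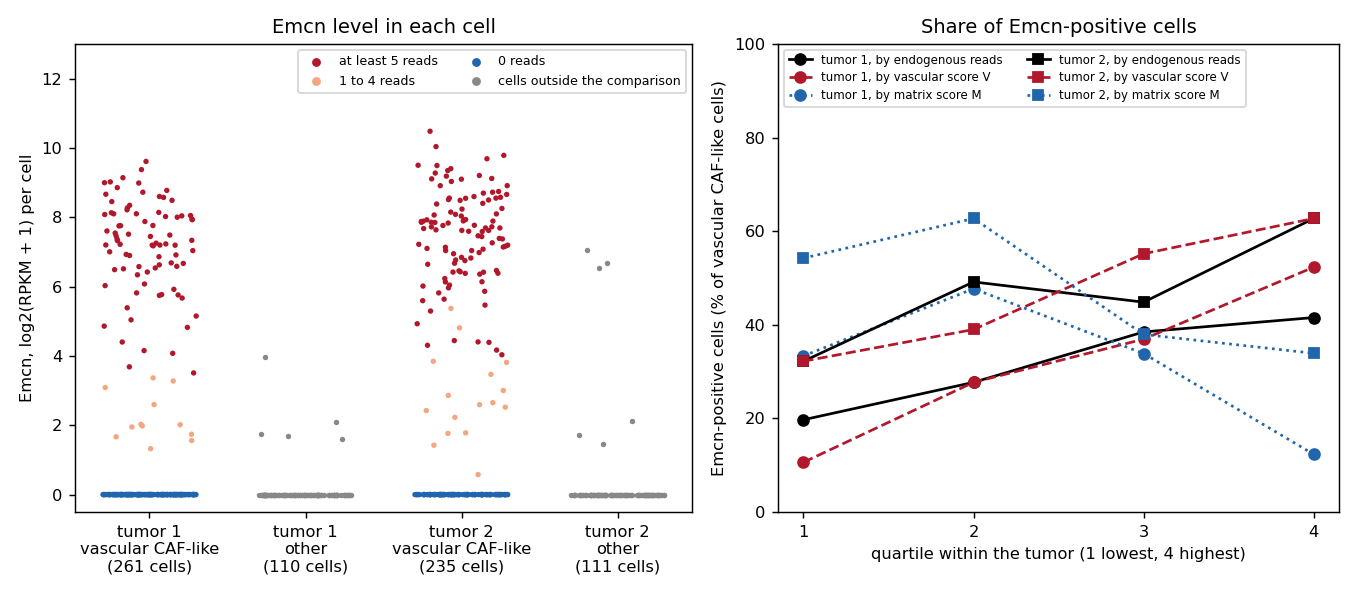
Left, *Emcn* as log2(RPKM + 1) in each of the 717 kept cells, by tumor and by membership in the vCAF-like class, colored by *Emcn* reads. Right, the percentage of *Emcn*-positive cells among vCAF-like cells in each quartile of endogenous reads, of V and of M within a tumor. The share rises with V from 10.6% to 52.3% in tumor 1 and from 32.2% to 62.7% in tumor 2, and is lowest in the highest quartile of M, at 12.3% in tumor 1 and 33.9% in tumor 2.

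*Emcn*-positive cells were 31.8% of the vCAF-like cells of tumor 1 (83 of 261, exact binomial 95% interval 26.2 to 37.8%) and 47.2% of those of tumor 2 (111 of 235, 40.7 to 53.8%), a mean of 39.5% ± 10.9 (SD, n = 2 tumors). The intervals do not overlap and cover the counting of cells only, not the variation between animals, tumors or plates. Among the other kept cells, 0 of 110 in tumor 1, a count that leaves room for up to 2.73%, and 3 of 111 in tumor 2 (2.70%, 0.561 to 7.70%) had at least 5 *Emcn* reads. Depth moved with the call. *Emcn*-positive cells had a median of 231381 endogenous reads against 185984.5 in *Emcn*-negative cells of tumor 1, and 211095 against 181933 in tumor 2. The share of *Emcn*-positive cells went from 19.7% in the lowest quartile of reads to 41.5% in the highest in tumor 1, and from 32.2% to 62.7% in tumor 2. With every cell thinned to 58000 reads, which left out 25 shallower cells, 27.2% and 42.5% still had at least 5 reads.

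The share also followed the vascular score, whose 6 genes do not include *Emcn*. From the lowest to the highest quartile of V it was 10.6, 27.7, 36.9 and 52.3% in tumor 1 and 32.2, 39.0, 55.2 and 62.7% in tumor 2. The median reads of the same quartiles were 186360, 222787, 200112 and 196318 in tumor 1 and 189754, 198206, 206885.5 and 174356 in tumor 2, and the part of depth in these shares was not tested. The median V was 9.48 in *Emcn*-positive and 8.76 in *Emcn*-negative cells of tumor 1, and 9.69 and 8.87 in tumor 2. The median M was 0.847 and 1.27 in tumor 1, and 0.668 and 1.26 in tumor 2. Cells with M of at least 2 were 8 of 83 *Emcn*-positive and 53 of 166 *Emcn*-negative cells in tumor 1, and 17 of 111 and 25 of 108 in tumor 2. The ranges of both scores overlap widely between the groups, as the plot of V against M shows.

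**Figure D2:**
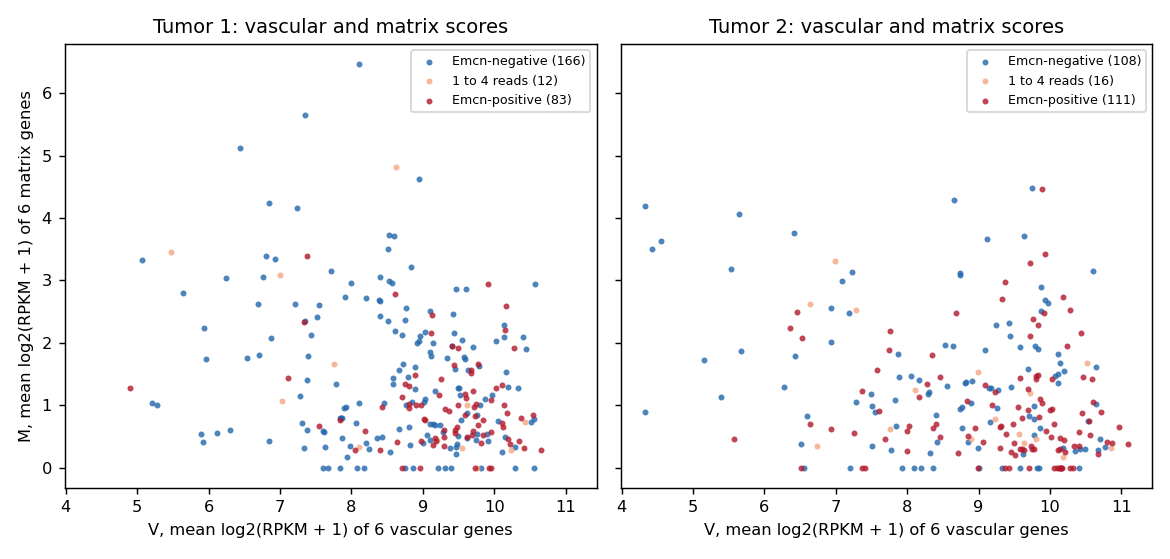
V, the mean log2(RPKM + 1) of 6 vascular genes, against M, the same mean of 6 matrix genes, in each of the 496 vCAF-like cells by tumor and *Emcn* class. *Emcn*-positive cells gather at high V and low M (medians 9.48 and 0.847 in tumor 1, 9.69 and 0.668 in tumor 2), with *Emcn*-negative cells spread among and beyond them.

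The genes of the vascular score differed one by one. *Rgs5*, a regulator of G protein signalling and the classical pericyte marker, had 12488 and 12242 CPM in *Emcn*-positive and *Emcn*-negative cells of tumor 1, and 11938 and 9775 in tumor 2. *Kcnj8*, a pore subunit of ATP-sensitive potassium channels, had 2324 and 1674 CPM in tumor 1, and 2235 and 1897 in tumor 2. *Higd1b* and *Gja4*, the latter a gap junction protein of arterioles, were higher in the *Emcn*-positive cells of both tumors, whereas the differences of *Rgs4* and *Abcc9* pointed in opposite directions in the tumors. Among the matrix genes, *Serpinf1*, an antiangiogenic secreted protein, had 29.0 and 207 CPM in tumor 1, and 63.7 and 442 in tumor 2. *Lum*, a collagen-binding proteoglycan, went the other way, with 44.6 and 5.91 CPM in tumor 1, where 51.9% of the reads of the *Emcn*-positive cells came from 1 cell, and 5.52 and 3.22 in tumor 2.

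Although *Emcn* is known as an endothelial gene, the defining endothelial genes were at or near 0 in both groups. *Pecam1*, the antigen of the CD31 sort, and *Cdh5*, the adherens junction cadherin of endothelium, had 0 reads in all 468 compared cells. *Robo4*, *Mmrn2*, *Aplnr* and *Esm1* also had 0 reads. *Tie1*, *Tek*, *Kdr*, *Cldn5* and *Erg* were read in 0 to 2 cells of any group. *Flt1*, a VEGF receptor that perivascular cells can carry, was read in 62 of 83 and 119 of 166 cells of tumor 1 and in 91 of 111 and 85 of 108 of tumor 2, and *Esam* and *Eng*, which pericytes also express, were read in most cells. Over all 26 endothelial surface genes listed, the summed level was 1639 CPM in *Emcn*-positive and 1621 in *Emcn*-negative cells of tumor 1, and 1480 and 1475 in tumor 2. Of 11 tested, 0 were called by edgeR (*Cd36* lower by DESeq2 and with the 10% detection filter, *Esam* higher by limma), 3 were higher in the *Emcn*-positive cells of both tumors and 4 lower, and the median difference of 0.22 differed in sign from the medians within tumor 1 (-0.09) and tumor 2 (-0.39).

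Markers of other sorted-out cells were few. *Epcam* was read in 1 and 7 cells of tumor 1 (*Emcn*-positive, then *Emcn*-negative) and in 10 and 8 of tumor 2, and *Ptprc*, the CD45 gene, in 1 cell of the 468. The 20 epithelial genes summed to 57.1 and 62.7 CPM in tumor 1 and to 267 and 367 in tumor 2, and the immune genes to at most 11.1 CPM in any group. The pericyte genes *Pdgfrb* and *Mcam* were read in 83 and 83 of 83, 166 and 164 of 166, 111 and 111 of 111, and 108 and 106 of 108 cells. The rule chose both groups for vascular genes, so this is a description.

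The comparison of *Emcn*-positive with *Emcn*-negative cells within each tumor asks what else differs with the gene among cells of the same class. Reads were summed over the cells of each group and tumor, giving 4 libraries of 19175046 to 32583680 reads, and tested with edgeR's quasi-likelihood test with the tumor as a block. Of 11158 genes tested (mean RPKM of 1 or more), 1 was lower in *Emcn*-positive cells under an adjusted p of 0.05 (Benjamini-Hochberg) (0.00896% of the genes tested) and 0 were higher (0.0%). At an unadjusted p under 0.05 there were 286 higher (2.56%) and 406 lower (3.64%). The summed level was higher in the *Emcn*-positive cells of both tumors for 26.3% of the genes and lower in both for 27.0%. The other tools run called more. DESeq2 called 18 higher (0.161%) and 90 lower (0.807%), and a filter of a read in 10% of the cells, in edgeR, 1 higher (0.0106%) and 22 lower (0.233%) of 9440 genes. The limma test on the cells' mean log2(RPKM + 1) called 188 higher (1.68%) and 19 lower (0.17%), with 42.5% of all genes higher and 15.5% lower in both tumors and a median difference of 0.10. Scaling to the ERCC totals shifted all genes alike, with a median of 0.19 in place of -0.01, and called 1 higher (0.00896%) and 6 lower (0.0538%). With 2 tumors the power is limited. On simulated counts for this comparison, 24 of 100 genes changed 2-fold and 65 of 100 changed 4-fold were called, with 8 of 10956 unchanged genes.

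The gene called was *Spp1* (chromosome 5, 104435111 to 104441053, GRCm38.p6), which encodes osteopontin, a secreted integrin-binding phosphoprotein of matrix and inflammation. It had 12.2 CPM in *Emcn*-positive and 114.9 CPM in *Emcn*-negative cells of tumor 1, and 81.6 and 651 CPM in tumor 2. Both *Emcn*-negative libraries lay above both *Emcn*-positive ones, and tumor 2 was higher than tumor 1 in each group. The log2 difference was -3.11 ± 0.155 (SE, adjusted p = 0.00998), with -3.23 in tumor 1 and -2.99 in tumor 2. *Spp1* was read in 61.4% of *Emcn*-positive and 48.2% of *Emcn*-negative cells in tumor 1, and in 70.3% and 76.9% in tumor 2. With every cell thinned to the same depth these shares were 21.95% and 28.2% in tumor 1, and 35.5% and 51.5% in tumor 2, lower in the *Emcn*-positive cells of both. A single cell gave 39.5% of the *Emcn*-negative reads in tumor 1 and 29.9% in tumor 2, and 20.2% and 43.1% of the *Emcn*-positive reads. Leaving out the highest cell of each library kept the difference at -3.05 but gave an adjusted p of 0.129, and among cells with M under 2 it was -1.81 (adjusted p = 0.948). The call held in 12 of the 19 alternatives. It was also lost with no replicate block (adjusted p = 0.999), with only cells of at least 100000 reads (0.342), with *Emcn*-positive cells from 1 read (-1.11, 0.464), under limma (-0.64, 0.173) and at an adjusted p of 0.001.

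The other genes shown were those with the smallest p among genes of 1 direction in both tumors and detected in 20% or more of the higher group in each tumor. They did not pass the adjusted test, and their common direction is fixed by how they were picked. *Loxl1* and *Lox*, oxidases that cross-link collagen and elastin, came next after *Spp1* on the lower side under these conditions. *Loxl1* had 28.7 and 121 CPM in tumor 1 (*Emcn*-positive, then *Emcn*-negative) and 38.8 and 170 in tumor 2, a log2 difference of -2.11 ± 0.192 (SE, adjusted p = 0.0890). *Lox* had 6.69 and 70.6 CPM in tumor 1, and 23.8 and 140 in tumor 2, with -2.97 ± 0.304 (SE, adjusted p = 0.141). In *Emcn*-positive cells of tumor 1, 85.9% of the *Lox* reads came from 1 cell. *Loxl1* was called in 8 of the 19 alternatives and *Lox* in 6, always on the lower side.

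*Fbln2*, a fibulin of elastic fibres and basement membranes, had 1.83 and 32.5 CPM in tumor 1, and 20.9 and 156 in tumor 2 (log2 difference -3.45 ± 0.384, SE, adjusted p = 0.157). *Cpxm2*, a carboxypeptidase-like secreted protein, had 49.3 and 161 CPM in tumor 1, and 23.6 and 102 in tumor 2 (-1.91 ± 0.215, SE, adjusted p = 0.157). *Mmp11*, the stromal metalloproteinase stromelysin-3, had 182 and 370 CPM in tumor 1, and 213 and 555 in tumor 2 (-1.20 ± 0.141, SE, adjusted p = 0.165). *Loxl1*, *Lox* and *Cpxm2* were read in a smaller share of *Emcn*-positive than of *Emcn*-negative cells in both tumors, 34.9 against 43.4% and 42.3 against 53.7% for *Loxl1*. *Fbln2* was read in 34.9 against 28.9% and 39.6 against 42.6%, and in thinned cells in 12.2 against 12.8% and 20.6 against 30.3%. Of the 19 alternatives, *Fbln2* was called lower in 4, *Cpxm2* in 3 and *Mmp11* in 2.

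On the higher side, *Mcm6*, a subunit of the replicative helicase, had the smallest p under the same conditions. It had 178 and 51.1 CPM in tumor 1 and 109 and 37.0 in tumor 2, a log2 difference of 1.68 ± 0.191 (SE, adjusted p = 0.157). It was read in 31.3% of *Emcn*-positive and 19.9% of *Emcn*-negative cells of tumor 1, and in 27.9% and 15.7% in tumor 2. *Mcm4*, of the same helicase, had 160 and 71.6 CPM and 94.8 and 58.9 CPM (adjusted p = 0.584), and *Rrm1*, the large subunit of ribonucleotide reductase, 172 and 103 CPM and 176 and 97.2 CPM (adjusted p = 0.519). *Mcm6* was called in 4 of the 19 alternatives, and without cycling cells its difference was 1.38 (adjusted p = 0.645). *Mcm4* was called higher in 2 of the alternatives and *Rrm1* in 1.

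The remaining genes picked on the higher side are read in most vCAF-like cells. *Agtr1a*, the angiotensin II receptor through which pericytes contract, had 344 and 232 CPM in tumor 1 and 270 and 184 in tumor 2 (log2 difference 0.56 ± 0.127, SE, adjusted p = 0.587). It was read in 89.2% against 69.3% and in 82.0% against 63.9% of the cells, and with every cell thinned to the same depth in 85.4% against 65.4% and 81.3% against 60.6%. *Spry4*, a feedback inhibitor of receptor tyrosine kinase signalling, had 424 and 282 CPM and 369 and 251 CPM (0.57 ± 0.119, SE, adjusted p = 0.559). *Pla2g7*, which degrades platelet-activating factor, had 269 and 133 CPM and 369 and 252 CPM (0.78 ± 0.160, SE, adjusted p = 0.540). Of the 19 alternatives, *Spry4* and *Pla2g7* were each called higher in 2 and *Agtr1a* in 1.

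**Figure D3:**
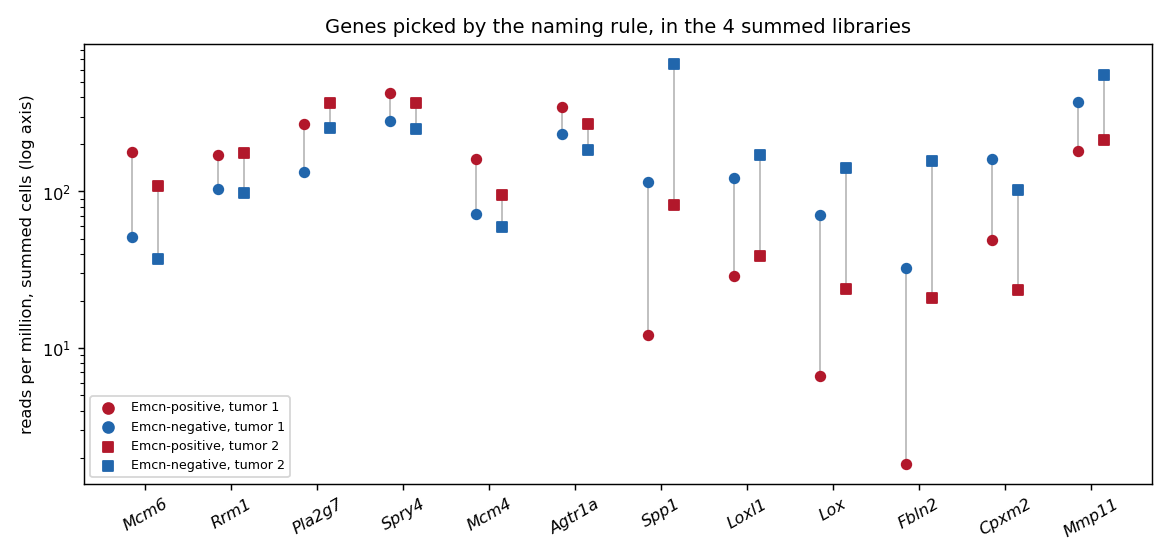
CPM on a log axis in the 4 summed libraries of 6 genes on each side, circles for tumor 1 and squares for tumor 2, a grey line joining the groups of a tumor. The genes had the smallest p among those of 1 direction in both tumors and detected in 20% or more of the higher group, and of them *Spp1* passed the adjusted test, with 12.2 against 114.9 CPM in tumor 1 and 81.6 against 651 in tumor 2.

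Interstitial matrix genes, the collagens, fibulins, elastin and cross-linking enzymes of fibroblasts, had mostly lower levels in *Emcn*-positive cells. Of 27 listed, 25 were tested and 0 called by edgeR. Their level was lower in both tumors for 19 and higher in both for 2, beside 27.0% and 26.3% of all genes, and 18 had an unadjusted p under 0.05, each on the lower side, where 3.64% of all genes had one. The median log2 difference was -0.37 in tumor 1 and -0.36 in tumor 2, beside -0.01 over all genes tested. Summed, the list had 32715 and 37136 CPM in tumor 1, and 31073 and 37558 in tumor 2. The fibrillar collagen genes *Col1a1* and *Col1a2* were read in nearly every cell. *Col1a1* had 1665 and 2483 CPM in tumor 1 and 1749 and 2399 in tumor 2, a log2 difference of -0.52 ± 0.0827 (SE, adjusted p = 0.416). *Col1a2* had 2083 and 3269 CPM in tumor 1 and 2147 and 3058 in tumor 2 (-0.58 ± 0.0802, SE, adjusted p = 0.289). *Fn1*, fibronectin, had 835 and 1110 CPM in tumor 1 and 1353 and 2009 in tumor 2. *Eln*, elastin, had 10.7 and 45.3 CPM and 13.9 and 36.3 CPM, and *Tnc*, tenascin C, 144 and 197 CPM and 98.3 and 261 CPM. *Postn*, periostin, and *Col5a3* were the members with a higher level in both tumors, *Postn* with 4350 and 3891 CPM and 4407 and 4267 CPM.

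The matrix score moved with this list, since it was lower in *Emcn*-positive cells (medians above). Among the cells with M under 2, 16 of the 25 genes were lower in both tumors and 3 higher, with a median of -0.20. Scaled to the ERCC totals, with all genes at a median of 0.19, the list's median was -0.17. DESeq2 called 10 of the 25 lower (0.807% of all genes), and the 10% detection filter 5 of the 27 tested there (0.233%). Under limma the list's median was -0.10, with 11 lower and 5 higher in both tumors (15.5% and 42.5% of all genes), *Lox* and *Loxl1* called lower and *Postn* called higher.

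The 16 basement membrane genes tested, made by pericytes and endothelium together, showed no such direction. Their median difference was -0.02, with 4 higher and 4 lower in both tumors, and 11 and 2 under limma, where 42.5% of all genes were higher and 15.5% lower. *Col4a1*, the main collagen of this membrane, had 6525 and 6426 CPM in tumor 1 and 7573 and 7349 in tumor 2, a log2 difference of 0.03 ± 0.0610 (SE, adjusted p = 0.954). *Sparc*, a collagen-binding matricellular protein, had 10218 and 10139 CPM and 8017 and 8892 CPM.

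**Figure D4:**
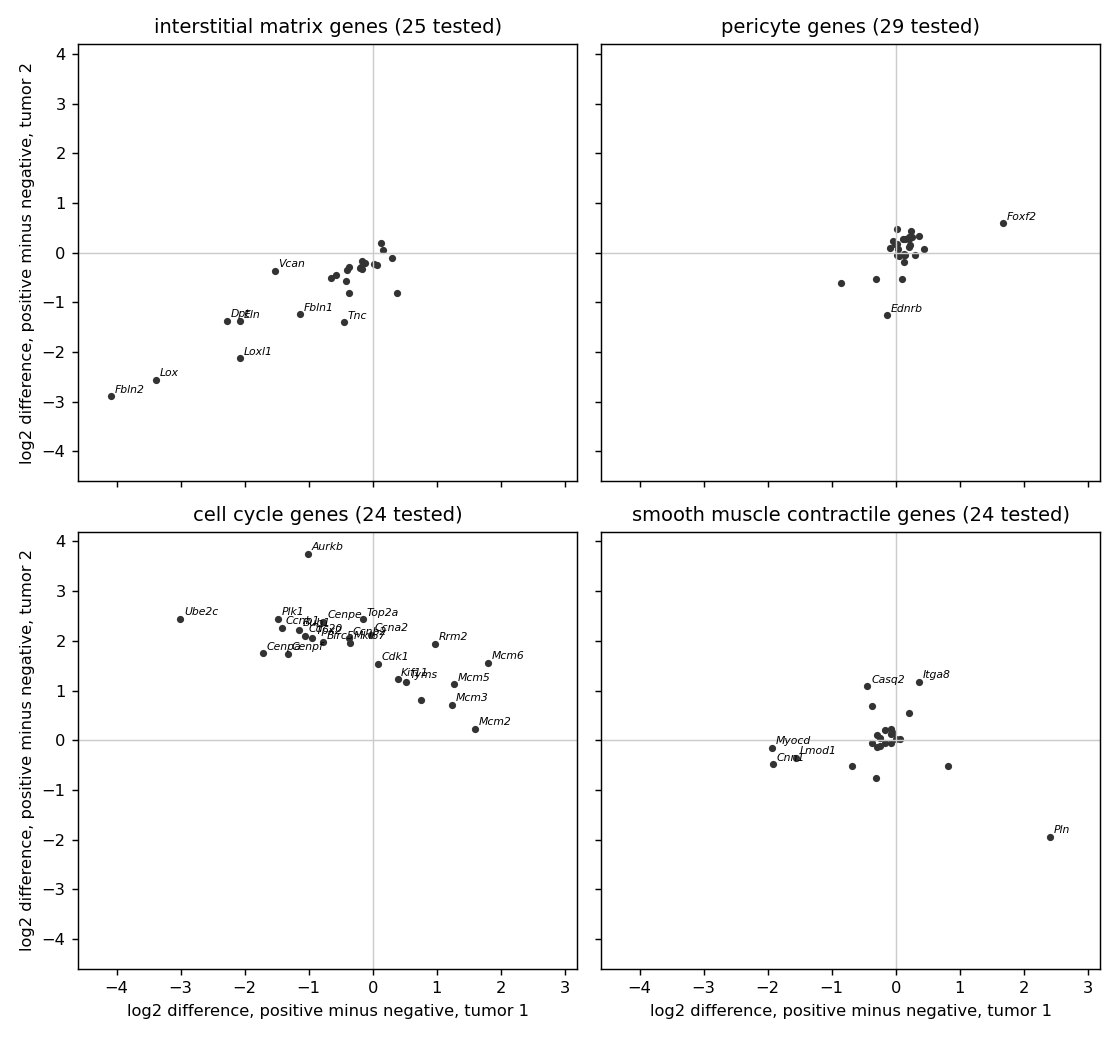
Log2 difference of the summed level, *Emcn*-positive minus *Emcn*-negative, in tumor 1 (horizontal axis) and tumor 2 (vertical axis) for the tested genes of 4 lists. Of the 25 interstitial matrix genes 19 lie at the lower left, of the 29 pericyte genes 14 lie at the upper right, and 15 of the 24 cell cycle genes differ in direction between the tumors.

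Pericyte genes had small differences in the summed libraries, and their calls depended on the tool. Of 30 listed, 29 were tested and 0 called by edgeR, with 14 higher in the *Emcn*-positive cells of both tumors and 3 lower, and a median difference of 0.09. *Pdgfrb*, the receptor that recruits pericytes to vessels, had 2834 and 2746 CPM in tumor 1 and 2822 and 2970 in tumor 2, a log2 difference of -0.01 ± 0.0773 (SE, adjusted p = 0.988). *Notch3*, the Notch receptor of mural cells, had 756 and 805 CPM and 865 and 810 CPM. *Steap4*, a metalloreductase, had 1417 and 1095 CPM in tumor 1 and 771 and 612 in tumor 2 (0.35 ± 0.0926, SE, adjusted p = 0.636). *Gucy1b3*, a subunit of the nitric oxide receptor, had 672 and 570 CPM and 687 and 507 CPM, and *Vtn*, vitronectin, 546 and 455 CPM and 381 and 305 CPM. The members lower in both tumors were *Tbx18*, *Ifitm1* and *Ednrb*. *Tbx18*, a transcription factor of mural cells, had 63.9 and 116 CPM and 74.5 and 114 CPM (-0.74 ± 0.189, SE, adjusted p = 0.625). Among cells with M under 2 the count was 8 higher and 8 lower. Under limma it was 25 higher and 2 lower, beside 42.5% and 15.5% of all genes, with a median of 0.37 beside 0.10 over all genes. Limma called 9 higher, as were 1.68% of all genes (*Vtn*, *Ndufa4l2*, *Cox4i2*, *Epas1*, *Gucy1a3*, *Gucy1b3*, *Art3*, *Steap4* and *Gjc1*). These cells were not thinned, the *Emcn*-positive ones had the higher median depth, and the part of depth in these calls was not tested. DESeq2 called 0.

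Contractile genes of smooth muscle had a median difference of -0.03 over 24 tested, with 4 higher and 10 lower in both tumors and 0 called by edgeR. Under limma 7 were higher and 3 lower, where 42.5% of all genes were higher and 15.5% lower. *Olfr558* was called higher there, as were 1.68% of all genes. *Acta2*, smooth muscle actin, had 4923 and 5158 CPM in tumor 1 and 4410 and 3791 in tumor 2, a log2 difference of 0.08 ± 0.0882 (SE, adjusted p = 0.932) that turned to -0.03 in thinned cells. *Myh11*, the smooth muscle myosin heavy chain, had 263 and 339 CPM and 243 and 251 CPM. *Mustn1* had 148 and 237 CPM and 132 and 188 CPM (-0.60 ± 0.145, SE, adjusted p = 0.599), and *Olfr558*, an odorant receptor of vascular smooth muscle, 720 and 621 CPM and 677 and 461 CPM. *Casq2*, a calcium store protein, pointed in opposite directions, with 92.1 and 125 CPM in tumor 1 and 146 and 68.8 in tumor 2.

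Receptors for vasoactive hormones, beside *Agtr1a*, did not share a direction in the summed libraries. Of 16 tested, 6 were higher and 3 lower in both tumors, beside 26.3% and 27.0% of all genes. Under limma 12 were higher and 3 lower, beside 42.5% and 15.5%, with a median of 0.26 beside 0.10 over all genes. The edgeR test called 0 of them, and limma called *Agtr1a* higher (log2 difference 1.51, adjusted p = 2.68e-06), as were 1.68% of all genes. *S1pr2*, a sphingosine 1-phosphate receptor, had 89.3 and 55.2 CPM in tumor 1 and 72.7 and 38.1 in tumor 2 (0.81 ± 0.223, SE, adjusted p = 0.673). *Ednra*, the endothelin receptor of contractile cells, had 789 and 714 CPM and 797 and 818 CPM. *Ednrb*, its counterpart read in fewer cells, had 131 and 143 CPM and 103 and 248 CPM.

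Among the genes through which pericytes signal to endothelium, *Angpt2*, the context-dependent ligand of the TIE2 receptor, had 136 and 305 CPM in tumor 1 and 119 and 240 in tumor 2, a log2 difference of -1.09 ± 0.140 (SE, adjusted p = 0.253). It was called lower by DESeq2 and with the 10% detection filter. It was read in 50 of 83 *Emcn*-positive and 113 of 166 *Emcn*-negative cells of tumor 1, and in 50 of 111 and 58 of 108 of tumor 2. *Angpt1*, the agonist of the same receptor, had 31.9 and 69.3 CPM in tumor 1 but 28.9 and 19.3 in tumor 2. *Pgf*, a VEGF family member that binds FLT1, had 228 and 162 CPM and 161 and 129 CPM (0.40 ± 0.147, SE, adjusted p = 0.800). *Vegfa* was read in 2 and 3 cells of tumor 1 and 6 and 12 of tumor 2. Over the 10 VEGF and angiopoietin genes tested, 4 were higher and 4 lower in both tumors, and over the 11 Notch genes 0 and 3. Under limma 3 Notch genes were higher and 1 lower, beside 42.5% and 15.5% of all genes. *Jag1*, a Notch ligand, had 259 and 313 CPM and 228 and 285 CPM (-0.30 ± 0.125, SE, adjusted p = 0.812).

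*Emcn* itself is a mucin. Of 9 sialomucins and related surface mucins listed, 3 were tested, and edgeR, DESeq2 and limma called 0 of them and 0 of 17 tested enzymes of mucin-type O-glycosylation. *Podxl*, podocalyxin, was read in 0 and 1 cells of tumor 1 and 2 and 1 of tumor 2, and *Cd34* in 3 and 7 and in 5 and 5. *Cd164*, a sialomucin of many cell types, had 376 and 416 CPM and 420 and 444 CPM. Of the 17 enzymes, 5 were higher and 4 lower in both tumors. *Galnt16*, a transferase that starts O-glycan chains, had 68.9 and 142 CPM in tumor 1 and 75.3 and 115 in tumor 2 (-0.83 ± 0.198, SE, adjusted p = 0.587). *Galnt1* and *Galnt2*, of the same family, differed by 0.18 ± 0.244 and 0.01 ± 0.219 (log2, SE).

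Of the 24 cell cycle genes, 9 had higher levels in the *Emcn*-positive cells of both tumors and 0 lower in both, beside 26.3% and 27.0% of all genes. The other 15 pointed in opposite directions in the tumors. *Mki67*, the proliferation antigen, had 85.0 and 109 CPM in tumor 1 and 139 and 35.7 in tumor 2, and *Top2a*, topoisomerase II, 107 and 119 CPM and 208 and 38.5 CPM, 45.2% of the *Emcn*-positive reads of tumor 2 coming from 1 cell. *Pcna*, the sliding clamp of replication, had 119 and 70.3 CPM in tumor 1 and 94.6 and 53.7 in tumor 2 (0.79 ± 0.191, SE, adjusted p = 0.595). The edgeR test called 0 of them. DESeq2 called *Mcm5*, *Mcm6* and *Rrm2* higher (0.161% of all genes) and limma *Mcm2*, *Mcm6* and *Pcna* (1.68%). With ERCC totals (0.00896%) and with the 10% detection filter (0.0106%), *Mcm6* was called higher. Under limma 18 were higher in both tumors, beside 42.5% of all genes. The medians of the list were -0.37 in tumor 1 and 1.96 in tumor 2. Cells with a mean log2(RPKM + 1) of at least 2 over 5 cycling genes were 15 of 83 *Emcn*-positive and 17 of 166 *Emcn*-negative cells of tumor 1, and 20 of 111 and 9 of 108 of tumor 2. Without these cells the median of the list was 0.09.

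Hypoxia and interferon genes had medians of opposite sign in the tumors. Hypoxia and glycolysis genes had medians of 0.31 in tumor 1 and -0.77 in tumor 2 over 19 tested. *Slc2a1*, the glucose transporter GLUT1, had 57.1 and 34.0 CPM in tumor 1 but 43.4 and 216 in tumor 2, where 1 cell gave 39.3% of the *Emcn*-negative reads. Interferon response and MHC class I genes had 0.31 and -0.43 over 21 tested, *B2m* having 1954 and 2010 CPM and 2175 and 3111 CPM. Immediate early genes, which dissociation can induce, had -0.12 and -0.18 over 19 tested, 10 of them lower and 2 higher in both tumors. Under limma 10 were higher and 4 lower in both, beside 42.5% and 15.5% of all genes, with a median of 0.34 beside 0.10 over all genes. *Egr2* had 71.3 and 138 CPM and 44.2 and 118 CPM (-1.19 ± 0.207, SE, adjusted p = 0.477), whereas *Fos* had 4515 and 4428 CPM and 3392 and 3316 CPM. The edgeR test called 0 genes of these lists, whereas DESeq2 called *Rsad2* higher and *Egr2* lower, the 10% detection filter called *Egr2* lower, and limma called *Psmb8* and *Fos* higher. It also called 0 in the lists with few tested genes, 5 endothelial transcription factors, 4 venous and lymphatic genes, 9 epithelial, 3 immune, 2 adipocyte, 1 glial and developmental CAF gene and 1 platelet gene, where limma called the adipocyte gene *Fabp4* higher.

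**Figure D5:**
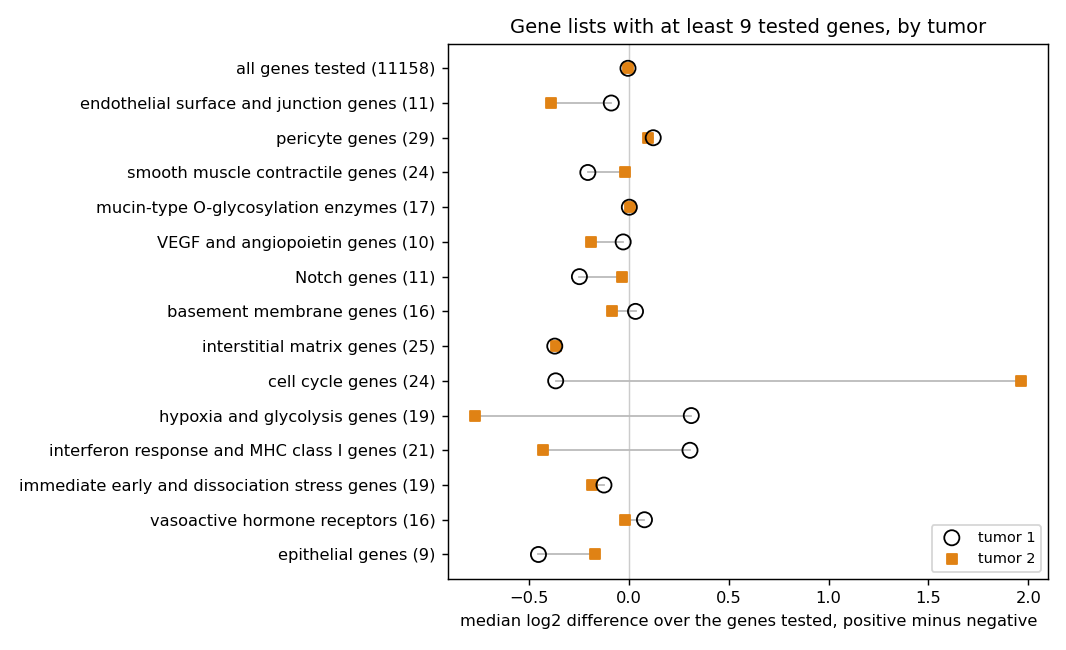
Median log2 difference, *Emcn*-positive minus *Emcn*-negative, over the tested genes of each list (number in brackets), circles for tumor 1 and squares for tumor 2, for all genes tested and for the lists with at least 9 tested genes. Interstitial matrix genes sit at -0.37 and -0.36, whereas cell cycle genes sit at -0.37 and 1.96.

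Among genes that mark CAF subsets elsewhere, *S100a4*, the FSP-1 gene, had 66.6 and 257 CPM in tumor 1 and 183 and 315 in tumor 2, a log2 difference of -1.36 ± 0.281 (SE, adjusted p = 0.545). It was called lower in 5 of the 19 alternatives. *Cspg4*, the gene of the NG2 antigen used in the sort, was read in 70 of 83 and 141 of 166 cells of tumor 1 and 102 of 111 and 97 of 108 of tumor 2, with 382 and 347 CPM and 543 and 448 CPM. *Fap*, fibroblast activation protein, had 278 and 276 CPM and 209 and 241 CPM, and *Fabp4*, a fatty acid-binding protein, 318 and 412 CPM and 401 and 349 CPM. The small differences of both in summed level reversed under some alternatives. *Fabp4* was read in 90.4% of *Emcn*-positive against 73.5% of *Emcn*-negative cells in tumor 1, and in 80.2% against 63.0% in tumor 2. In thinned cells these shares were 89.0 against 68.6% and 77.6 against 61.6%. Limma called *Fabp4* higher (log2 difference 1.24, adjusted p = 2.92e-06), as were 1.68% of all genes. *Dcn*, decorin, a gene of the matrix score, had 4.02 and 42.9 CPM in tumor 1 and 7.97 and 8.47 in tumor 2.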

How the data were processed

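Single-cell Smart-seq2 data of 768 wells in 2 tumors were used. The authors aligned reads with STAR to mm10 and deposited raw gene counts over the RefSeq annotation, and they derived the deposited RPKM values from the same alignments. Each table covers 24490 mouse genes plus 92 spike-ins, and 0 columns were left unused. RPKM, as log2(RPKM + 1), set the scores V and M, and counts set the *Emcn* classes and all tests. Members and gene lists were chosen with earlier results of these data known.

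Counts were summed per tumor and *Emcn* class into 4 libraries and compared by the quasi-likelihood F test of edgeR 4.0.16 (TMM scaling, tumor as a block, Benjamini-Hochberg adjusted p of 0.05) over the 11158 genes whose mean RPKM reached 1, leaving out the 13 genes of the rule. Both libraries of a tumor come from 1 animal, so they are paired, and their deviations from the group means correlated by 0.180 over genes. Standard errors are the log2 difference over the square root of F. Within-tumor log2 differences used a prior count of 2. Genes were named by a rule: called genes with 1 direction in both tumors and reads in at least 20% of cells of the higher group, filled up to 6 a side by p, with the first genes of 22 lists, called list genes and 7 genes that divide these cells in other comparisons. Other list genes were named after their values were seen. The fit was tested on simulated data. Shares have exact binomial intervals (95%), and limits for 0 use 3 counts. Alternatives used DESeq2 1.42.0, limma 3.58.1 and other thresholds, filters and scalings, with those on M, on the highest cell and on thinning with the 10% filter added after seeing the data. Doublets were not called, and each well holds 1 sorted cell.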

Additional observations from a re-analysis of the deposited data

Results flagged for a closer look

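The summed levels of *Acta2*, *Casq2*, *Fap* and *Fabp4* had opposite directions in the tumors, a difference that was not tested. The log2 difference between *Emcn*-positive and *Emcn*-negative cells was -0.067 in tumor 1 and 0.218 in tumor 2 for *Acta2*, -0.441 and 1.09 for *Casq2*, 0.014 and -0.208 for *Fap*, and -0.374 and 0.199 for *Fabp4*. As a mean of log2(RPKM + 1) over cells, *Acta2*, *Casq2* and *Fabp4* were higher in the *Emcn*-positive cells of both tumors, and *Fap* again had opposite directions. With 1 value per tumor, any gene that is not the same in both has either 1 direction or opposite ones, and 5209 of the 11158 genes tested were neither higher nor lower in both.

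*Emcn* reads were also found in kept cells outside the vCAF-like class, which no comparison used. At least 1 read was present in 4.55% of these cells in tumor 1 (5 of 110, exact 95% interval 1.49 to 10.3%) and in 5.41% in tumor 2 (6 of 111, 2.01 to 11.4%), with no control cells to set them against. All but 1 of them were cells with M of at least V.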

How the results depend on the processing

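The counts of called genes depended on the processing. With the settings of the report 0 genes were called higher and 1 lower. Genes called lower numbered 0 at an adjusted p of 0.001, with no replicate block, with only cells of at least 100000 reads, with only cells of M under 2, and without the highest cell of each gene. They numbered 2 with *Emcn*-positive from 1 read, 3 with V of at least 5 and with thinned cells under the 10% filter, 4 with no filter on genes and with thinned cells, and 6 with ERCC totals and without cells with *Pecam1*, *Cdh5*, *Epcam* or *Ptprc* reads. A filter of a read in 10% of the cells, which left 9440 genes, gave 22 lower and 1 higher, limma 19 and 188, DESeq2 90 and 18, and ERCC totals 1 higher. DESeq2's 90 lower genes held 21 of the 22 of the 10% filter and 16 of limma's 19, while the 10% filter and limma shared 7 of 22 and 19. On the higher side DESeq2 and limma shared 7 of 18 and 188. The median difference of all genes was 0.096 under limma and 0.194 under ERCC totals. The ERCC scaling shifted all genes alike, and this shift carries the values below under that scaling. The change under limma was not common to all genes. The median of the cell cycle genes went from 0.80 to 0.27 and that of the pericyte genes from 0.09 to 0.37. *Spp1* kept its direction in all 19 alternatives, and with no replicate block the count of calls was 0. *Acta2* turned to -0.032 with thinned cells and -0.030 with thinned cells under the 10% filter, *Fap* to 0.106 with ERCC totals, 0.022 with *Emcn*-positive from 1 read and 0.081 without cycling cells, and *Fabp4* to 0.116 with ERCC totals and 1.24 under limma. The share of *Emcn*-positive cells, 39.5%, ranged from 34.9% (thinned cells) to 45.2% (from 1 read), and was 31.8% and 47.2% with 1 tumor left out. Leaving out a tumor leaves no residual spread, so those folds carry no test. Where a call was lost with fewer cells or genes, the fewer cells or genes are part of that alternative, and otherwise the cause was not tested.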

Other observations

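The 28 vCAF-like cells with 1 to 4 *Emcn* reads lay between the groups in V, with medians of 8.91 in tumor 1 and 9.12 in tumor 2, and had medians of M of 0.868 and 0.693, near those of *Emcn*-positive cells. Their median depth was 219612.5 and 162375.5 endogenous reads.

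In tumor 2, 3 cells outside the vCAF-like class had at least 5 *Emcn* reads, 2 of them with M of at least V.

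*Emcn*-positive cells were spread over the plates. Of the compared cells of tumor 1 they were 32.0% in rows A to H and 34.7% in rows I to P, and of those of tumor 2 52.4% and 48.4%. By plate columns they were 30.0% in columns 1 to 12 and 37.0% in columns 13 to 24 of tumor 1, and 55.7% and 46.0% in tumor 2.

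Over the 4235 genes with a mean of at least 50 CPM, the within-tumor differences of tumor 1 and tumor 2 correlated by 0.192 (Pearson, across genes, which are not independent replicates). Their SD over genes was 0.373 and 0.397 on the log2 scale.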
